A study of Mus musculus with 2 samples.

Results

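The 9 genes described here encode the arginases, the urea cycle enzymes and the enzymes that compete for arginine or use its product: Arg1, Arg2, Nos2, Ass1, Asl, Otc, Cps1, Nags and Odc1. They were taken by gene name from a mouse expression array that holds 31947 genes and unnamed transcripts, and all 9 were present, with 14 probes on 23 spots. The RNA came from liver sinusoidal endothelial cells (LSEC), the perforated cells lining the liver's capillaries. One group was 1 wild-type male mouse and the other 1 ob/ob male mouse, which lacks functional leptin and becomes obese, both 8 weeks old. Livers were digested with collagenase and the cells of both groups were kept in serum-containing medium overnight. No marker-based purification of the cells is named in the sources used here, nor is the mouse strain. Each RNA was hybridised to 1 array, so no difference below has a replicate check and no test was run. The genes were selected on the measured ob/ob to wild-type difference of Arg1, with the other 8 taken for their place in the pathway, so the values are a description.

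The urea cycle turns ammonia into urea and runs complete in periportal hepatocytes. Nags makes the activator of Cps1, Cps1 and Otc work in the mitochondrion and yield citrulline, Ass1 and Asl turn citrulline into arginine in the cytosol, and Arg1 splits arginine into urea and ornithine. Macrophages lack the mitochondrial part of the cycle but can switch on Arg1 after IL-4 and related signals, and Nos2, which makes nitric oxide from arginine, after bacterial or interferon signals. Arg2 is the mitochondrial arginase of many other cells, and Odc1 commits ornithine to polyamines. Ass1 and Asl also recycle citrulline to arginine in endothelial cells and macrophages.

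The probes decide what each signal stands for, so 1 probe each of both arginases, Asl, Otc, Cps1 and Nags is shown. Coordinates are on mouse build mm9, as the files give them. The Arg1 probe lies at chr10:24636194-24636253 on the minus strand, the Arg2 probe at chr12:80252972-80253031, the Cps1 probe at chr1:67276029-67276088 and the Nags probe at chr11:102009515-102009574, the last 3 on the plus strand. The Asl probe spans chr5:130487964-130488549 on the minus strand, 586 bases of genome for 60 letters, and the Otc probe with 10 spots spans chrX:9853843-9877490, or 23648 bases, so each crosses at least 1 splice junction. No annotation of build mm9 was used here, and exon or UTR is otherwise not stated. Each of the 6 probes has at least 1 forward reading frame free of stop codons, which was a condition for being shown. The other Otc probe has none and is not shown. Capitals mark the longest run that the Arg1 and Arg2 probes share.
Arg1: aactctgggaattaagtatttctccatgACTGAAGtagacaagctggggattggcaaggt
Arg2: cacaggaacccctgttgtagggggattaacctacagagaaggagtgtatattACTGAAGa
Asl: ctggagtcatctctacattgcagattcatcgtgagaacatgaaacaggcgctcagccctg
Otc: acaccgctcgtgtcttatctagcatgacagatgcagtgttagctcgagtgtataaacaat
Cps1: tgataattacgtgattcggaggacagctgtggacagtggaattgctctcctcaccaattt
Nags: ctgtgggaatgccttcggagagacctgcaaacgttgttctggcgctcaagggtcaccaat
The shared run is 7 bases of 60, so the probes of the arginases have little sequence in common.

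Signals are the scanner's processed intensities, and each difference is log2 ob/ob less log2 wild-type, taken after each array was divided by its 75th percentile, an intensity of 989 (wild-type) and 1430 (ob/ob). A probe counted as measured where it was well above background, and a gene was represented by its brightest probe. In all 18164 genes were measured on both arrays, 2179 in ob/ob cells alone, 273 in wild-type cells alone and 11331 on neither. The median difference over the genes measured on both was -0.12. Leptin itself, the mutated gene, had signals of 2.94 and 2.69, at background on both, and so does not check the genotypes. A ± beside a difference is the SD from the scanner's error model for single spots. It holds no spread between mice. Among the probes of a gene that has several (3664 genes), differences scattered with an SD of 0.33. No member spot was saturated or an outlier, and their local background ran from 51 to 71 against array medians of 63 and 60.

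Of the 9 genes, 6 were measured on both arrays. The ob/ob array alone measured Otc, as it did 6.82% of all genes, and 2, Cps1 and Nags, on neither, as were 35.5% of all genes. At least 2-fold higher on the ob/ob array were Arg1 and Arg2, 2 of the 6, against 5.81% of all genes measured on both arrays. At least 2-fold lower were 0 of the 6, against 2.30% of all genes. The median of the 6 was 0.64, and since Arg1 was chosen for its difference, nothing is read from these shares.

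**Figure D1:**
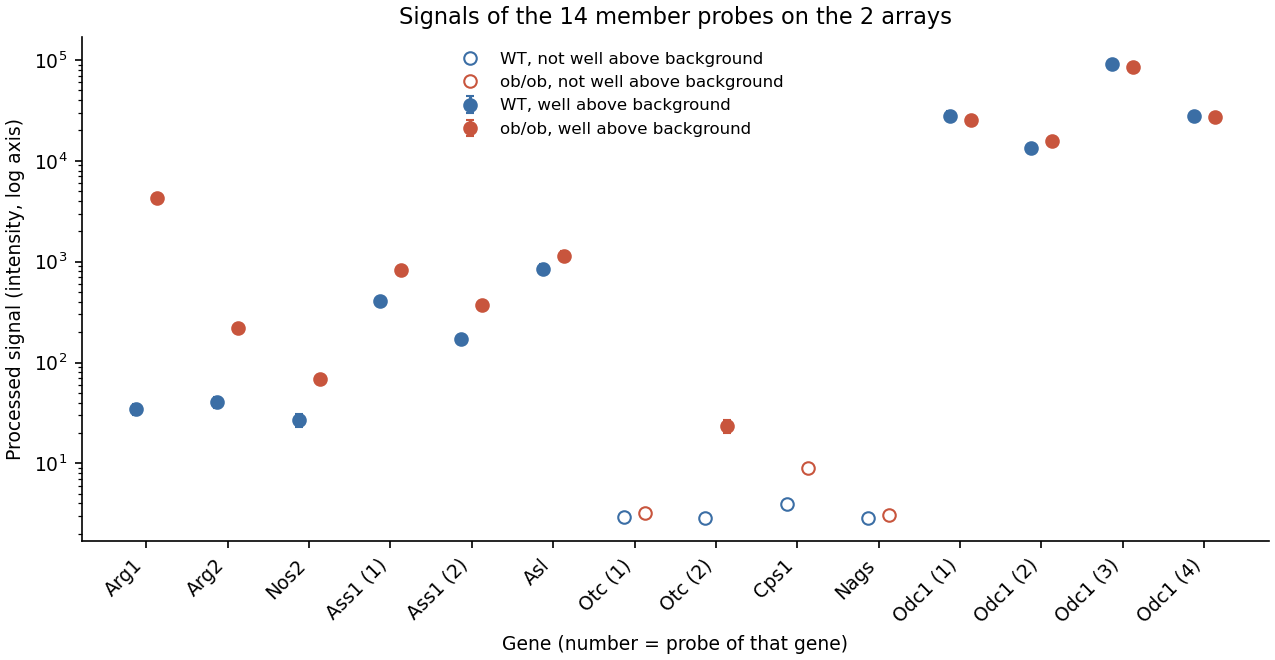
Processed signal (intensity, log axis) of each of the 14 probes on the wild-type (blue) and ob/ob (red) array; filled points were well above background, open points were not, and bars are the scanner's error for single spots. Arg1 goes from 34.6 to 4300, while the probes of Cps1 and Nags and the first Otc probe are open on both arrays.

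Arg1, the cytosolic arginase, had a signal of 34.6 in the wild-type and of 4300 in the ob/ob preparation. The difference was 6.42 ± 0.23, or 85.9-fold, the largest of all 18164 genes measured on both arrays. The wild-type signal was low, though well above background. With normexp background correction the difference was 3.99 (15.9-fold) after scaling on the 75th percentile and 4.60 (24.3-fold) after quantile normalization, both still far past 2-fold. A single probe reads Arg1, so no other probe of the gene could be set beside it.

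Arg2, the mitochondrial arginase, had signals of 40.7 and 221, a difference of 1.91 ± 0.23 or 3.75-fold. The wild-type signal was low, as for Arg1. As scaled here Arg2 too was higher in the ob/ob cells, by much less than Arg1. Of the genes measured on both arrays, 2.05% had a larger difference. The Arg2 difference was not kept under every correction: it was 0.74 with normexp and quantile normalization and -0.10 with normexp and the 75th percentile. The last setting called 3823 of all genes lower and 369 higher, against 417 and 1055 here.

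Nos2, the inducible nitric oxide synthase, which draws on the same arginine, was dim on both arrays, with signals of 27.0 and 67.9 (probe at chr11:78773567-78773626). Its difference was 0.80 ± 0.27, within 2-fold, and 7.43% of genes had a larger one. The sign turned with the processing, at -1.14 under normexp with 75th-percentile scaling and 0.10 under normexp with quantiles, so no direction is given for Nos2.

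Ass1, which joins citrulline and aspartate, was read by a pair of probes without overlap. The brighter one (chr2:31376068-31376127) gave 409 and 828, a difference of 0.48 ± 0.20, and the other (chr2:31375998-31376057) gave 169 and 373, a difference of 0.61 ± 0.21. Both probes were brighter on the ob/ob array, and both stayed within 2-fold. Asl, which releases arginine from argininosuccinate, had signals of 853 and 1150, which after scaling is a difference of -0.10 ± 0.20, next to the median of all genes. The citrulline-to-arginine steps were thus measured in both preparations, with differences of less than 2-fold under every one of the 10 alternative settings, where Ass1 ranged from 0.20 to 0.60 and Asl from -0.38 to 0.01.

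The mitochondrial steps were at or near background. Cps1, one of the most abundant proteins of hepatocyte mitochondria, had signals of 3.96 and 9.0, and Nags, which makes its activator, 2.86 and 3.05, not well above background on either array. Otc, which makes citrulline, gave on its 10-spot probe wild-type signals of 2.59 to 3.62 and ob/ob signals of 2.40 to 7.02, with 0 of 10 spots well above background on each. A further Otc probe (chrX:9897267-9897326) had a wild-type signal of 2.89 and an ob/ob signal of 23.6, and the latter was well above background. The ob/ob signal is thus at least 1.32-fold the brighter, taking the dimmest measured signal of 12.3 as the wild-type limit. The probes of Otc thus disagreed on whether the gene was measured. No fold is given for Cps1 or Nags, because a signal at background is a limit and not a level. Cps1 and Nags were each read by a single probe on 1 spot, so a poorly binding probe and low RNA cannot be told apart.

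Odc1, the first enzyme of polyamine synthesis, was bright on both arrays with all 4 probes. Its brightest probe (chr12:17557831-17557890) had signals of 91559 and 85600, a difference of -0.63 ± 0.20. The probe at chr12:17557836-17557895 gave 27603 and 27300 (-0.55), the one at chr12:17557869-17557928 gave 13327 and 15800 (-0.29), and the one at chr12:17554799-17554858 gave 28071 and 25500 (-0.67). All 4 differences were negative and within 2-fold. The probes are not independent, because the first and the second overlap over 55 bases with 1 mismatch and the first and the third share 22 bases. Bright genes in general were lower on this scale: the running median of the difference over genes at the level of Odc1 was -0.46, which leaves -0.17 for Odc1.

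**Figure D2:**
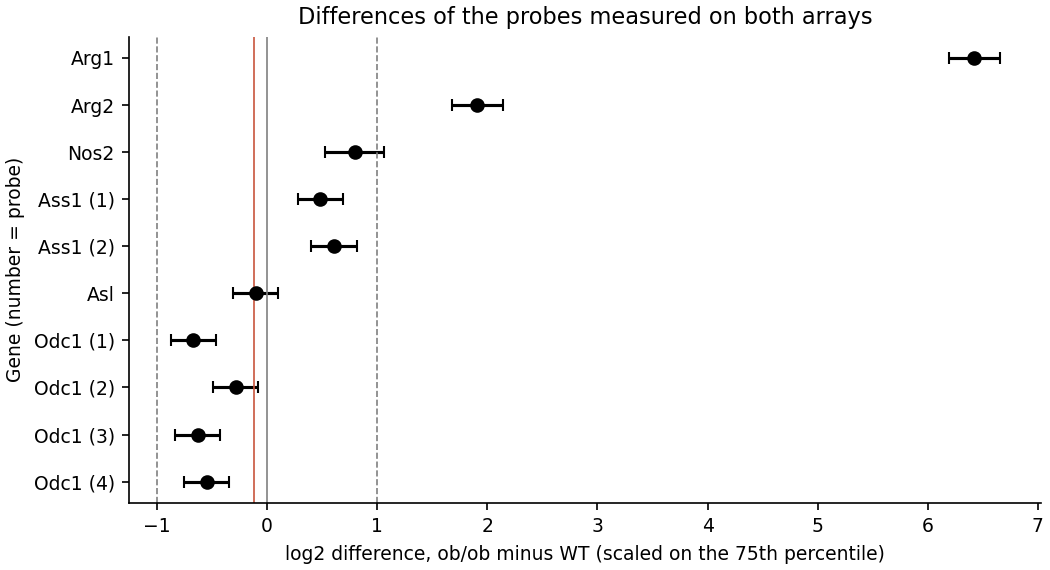
log2 difference, ob/ob minus wild-type, of the 10 probes measured on both arrays, with bars of 1 SD from the scanner's error model; dashed lines mark 2-fold, the grey line 0 and the red line the median of all genes (-0.12). Arg1 at 6.42 and Arg2 at 1.91 lie past the upper dashed line, and the other 8 probes lie between the lines.

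Among the named genes measured on both arrays, the nearest to Arg1 in log2 difference was the cytokine Il1b at 6.07, a gap of 0.36. Next came the eosinophil chemokine Ccl24 at 5.40, a gap of 1.02, and the myeloid inhibitory receptor Pilra at 5.0, a gap of 1.43. Chil3, measured in ob/ob cells alone and at least 110-fold brighter there, was not ranked. The gaps grow quickly because Arg1 stands at the end of the distribution of genes measured on both arrays. For Arg2 the nearest were Gm7298, Arhgap9 and the chemokine Ccl3, all at 1.91, in a dense part of the distribution where the ranking of neighbours carries little.

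**Figure D3:**
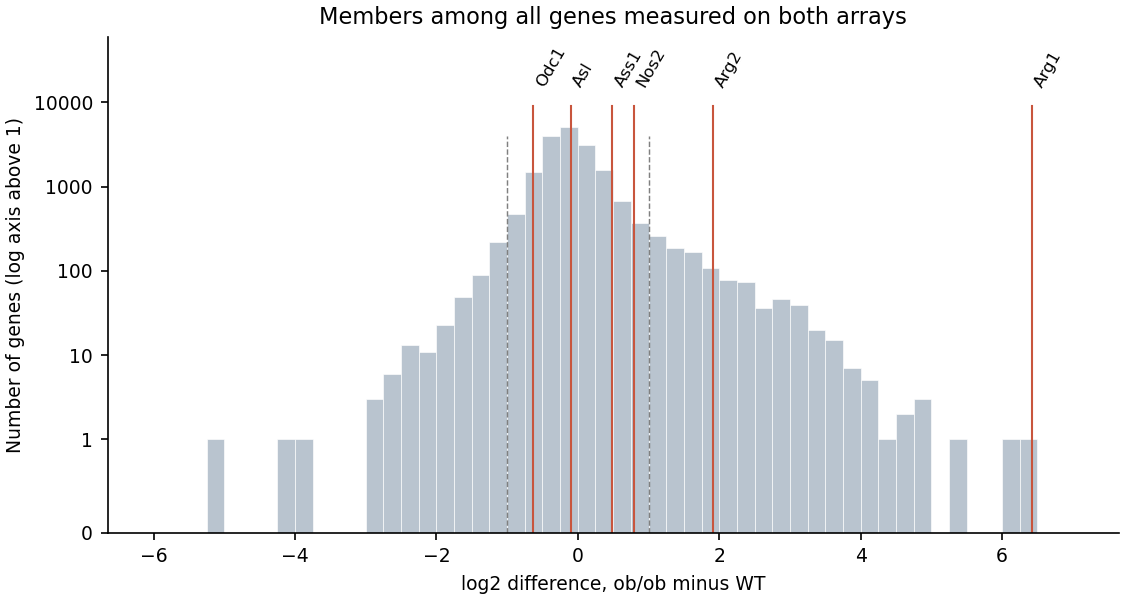
Number of genes (log axis above 1) by log2 difference, ob/ob minus wild-type, in bins of 0.25 for the 18164 genes measured on both arrays, with red lines at the 6 measured members and dashed lines at 2-fold. Arg1 falls in the last filled bin, Arg2 in the upper tail, and Nos2, Ass1, Asl and Odc1 in the bulk.

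Genes that supply or use the same metabolites mostly stayed within 2-fold. Of arginine and ornithine carriers, 1 of 12 was higher and 0 lower (median -0.20): Slc7a2, the cationic amino acid transporter CAT2 of macrophages, hepatocytes and muscle, with signals of 27.0 and 114, a difference of 1.54. Slc7a2 was within 2-fold with either normexp setting, and under normexp with 75th-percentile scaling 4 carriers were lower (median -0.65). Slc7a1, the general arginine transporter, had signals of 10466 and 13100 (-0.21), and Slc25a15, which carries ornithine into mitochondria, 123 and 116 (-0.62). As scaled here, the carriers other than Slc7a2 lay between -0.62 and 0.10.

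Of polyamine genes, 1 of 12 measured was higher and 0 lower (median -0.12): Paox, which oxidises acetylated polyamines, with signals of 1687 and 5220 and differences of 1.097 and 1.08 on its probes, though it was within 2-fold with scaling on the array median. Spermidine synthase Srm differed by -0.46 and antizyme Oaz1, the inhibitor of Odc1, by -0.63, close to Odc1 itself. Of the enzymes that link ornithine and proline, 0 of 7 measured were past 2-fold (median 0.12), among them ornithine aminotransferase Oat, the route from ornithine to proline, with signals of 2319 and 3640 (0.12).

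Of other nitric oxide genes, 0 of 9 measured were past 2-fold (median -0.05). The lowest, the arginine methyltransferase Prmt1 at -0.92, became 1 lower call if scaled on the array median. The endothelial synthase Nos3 had signals of 8425 and 13700 (0.17), Gch1, which starts the synthesis of the synthase cofactor tetrahydrobiopterin, differed by -0.05, and Nos1 was above background on neither array. Of creatine and agmatine genes, 1 of 5 was lower and 0 higher: agmatinase Agmat, with signals of 301 and 161, a difference of -1.43 that stayed past 2-fold under all 10 alternatives. Gatm, which takes the amidino group of arginine for creatine, differed by 0.22.

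Of ammonia and glutamine genes, 1 of 11 measured was higher and 0 lower (median -0.13). This was the alanine aminotransferase Gpt2, with signals of 82.7 and 305, a difference of 1.35 that was within 2-fold with either normexp setting. The glutamine transporter Slc38a3, known from pericentral hepatocytes, was above background only in ob/ob cells, at least 2.70-fold brighter there. Glutamine synthetase Glul differed by 0.55, and the mitochondrial carbonic anhydrase Car5a, which supplies bicarbonate to Cps1, was above background on neither array, as Cps1 was.

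Of transcription factors and hormone receptors tied to the urea cycle or to Arg1, 3 of 14 measured were higher and 0 lower (median 0.25). They were Cebpd at 1.63, the glucagon receptor Gcgr at 1.53, with signals of 91.9 and 383, and Hnf4a, a hepatocyte master regulator, at 1.24, with signals of 42.9 and 146. Cebpb, a known activator of Arg1, had signals of 31684 and 44200 (-0.05), and Stat6, which carries the IL-4 signal, 2316 and 3490 (0.06). Over the alternatives the number higher was 2 to 4. It was 2 under both normexp settings and with scaling on the array median, where Hnf4a was within 2-fold. Lower calls appeared with array-median scaling (1), without the filter on dim probes (1), and under normexp with 75th-percentile scaling (2). That last setting also gave 1 lower call each among the ornithine and proline and the ammonia and glutamine genes, and 2 among the hepatocyte markers described next.

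Hepatocyte markers moved with Arg1. Of 22 measured on both arrays, 19 were past 2-fold on the higher side, none (0) on the lower side, and the median was 2.50, and their summed signal in units of the 75th percentile was 11.5 for wild-type and 65.4 for ob/ob. Cyp3a11 was the largest at 3.79, before Apob at 3.65, Cyp2f2 at 3.62 and Apoc3 at 3.36, and albumin Alb differed by 3.15. As scaled here, the largest of these was 13.9-fold for Cyp3a11, and Arg1 was 85.9-fold. Whether hepatocyte content accounts for the Arg1 difference was not tested. The Apob wild-type signal of 13.5 was little above the dimmest measured signal on that array, 12.3. The 3 markers within 2-fold were Tat at 0.61, Apoa1 at 0.16 and Mup3 at -0.42. The gluconeogenic enzymes G6pc and Pck1 were dim and measured in ob/ob cells alone, at least 3.05-fold and 2.84-fold brighter, and glycogen synthase Gys2 was above background on neither array. In such bulk RNA a difference in the number of cells of a type and in RNA per cell cannot be told apart.

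Macrophage markers moved with Arg1 too. Of 19 measured on both arrays, 16 were higher, 0 lower and 3 within 2-fold (median 1.80), with a summed signal of 67.3 and 187, and Cd163 was above background on neither array. The 16 include Csf1r at 1.0017, whose 3 probes ran from 0.016 to 1.34. With scaling on the array median 14 were higher. Timd4 was the largest at 4.63, or 24.8-fold, before Aif1 at 3.96, Fcgr1 at 3.20 and Vsig4 at 3.20. The Timd4 signals were 14.4 and 517, and the wild-type one was little above the dimmest measured signal on that array, 12.3. The Kupffer cell lectin Clec4f differed by 1.51. The 3 markers within 2-fold were Cd68 at 0.38, Mertk at -0.05 and Itgam at -0.08, though another Itgam probe gave 2.85. The part of either marker list in the Arg1 difference was not tested.

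Genes of macrophage activation were split. Of genes known to respond to IL-4, without Arg1, 5 of 11 measured were higher and 0 lower (median 0.72), and another 5 were above background in ob/ob cells alone. Ccl24 was 5.40 higher, with signals of 82.9 and 5070, Rnase2a 3.03, Clec7a 1.502 and Egr2 1.25, while the bounds for Chil3 and Clec10a were at least 110-fold and at least 8.69-fold higher in ob/ob cells. Retnla, Ccl22, Irf4, Cd209a and Alox15 were above background on neither array, and Mrc1 and Mgl2, which were bright on both, differed by -0.27 and -0.91. Mrc1 is also a marker of sinusoidal endothelium. Scaled on the array median, this list had 3 higher, without Egr2, and 1 lower, Mgl2, and under normexp with 75th-percentile scaling 4 higher and 1 lower.

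Of genes known to respond to bacterial products or interferon gamma, 9 of 14 measured were higher and 0 lower (median 1.39), or 8 higher and 1 lower under normexp with 75th-percentile scaling. Il1b was 6.07 higher, with signals of 16.6 and 1607, Fpr2 3.74, Il6 3.08 and Cd86 2.99, while Il12b, Il12a, Gpr18 and Ido1 were above background on neither array. Both response lists thus had members beside Arg1 among the largest differences, and neither was higher throughout.

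The defining genes of the labelled cell type differed little. All 20 sinusoidal endothelial markers were measured on both arrays and 0 were past 2-fold (median -0.18, and 1 lower if scaled on the array median), with a summed signal of 184 and 150. Stellate cell markers had 9 of 10 measured higher (median 1.88), a count of 1 under normexp with 75th-percentile scaling. Cholangiocyte markers had 3 of 4 measured higher: Spp1 at 3.73, Krt8 at 2.90 and Krt18 at 2.81. Krt19, Krt7, Epcam and Sox9 were dim and measured in ob/ob cells alone, with bounds of only 1.87-fold, 1.01-fold, 1.05-fold and 1.55-fold. Neutrophil markers had 0 of 5 higher and 2 lower, Mpo at -1.32 and Elane at -1.01, and the number lower ran from 0 to 4 over the alternatives. Mmp8, S100a9 and S100a8 were measured in ob/ob cells alone, at least 9.30-fold, 5.77-fold and 2.77-fold higher. Lymphocyte markers had 0 of 2 past 2-fold, while Cd3d and Gzmb were measured in ob/ob cells alone (at least 6.44-fold and 8.80-fold), and erythroid markers had 1 of 3 higher, Car2 at 1.11, a call lost with array-median scaling, quantile normalization and both normexp settings.

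**Figure D4:**
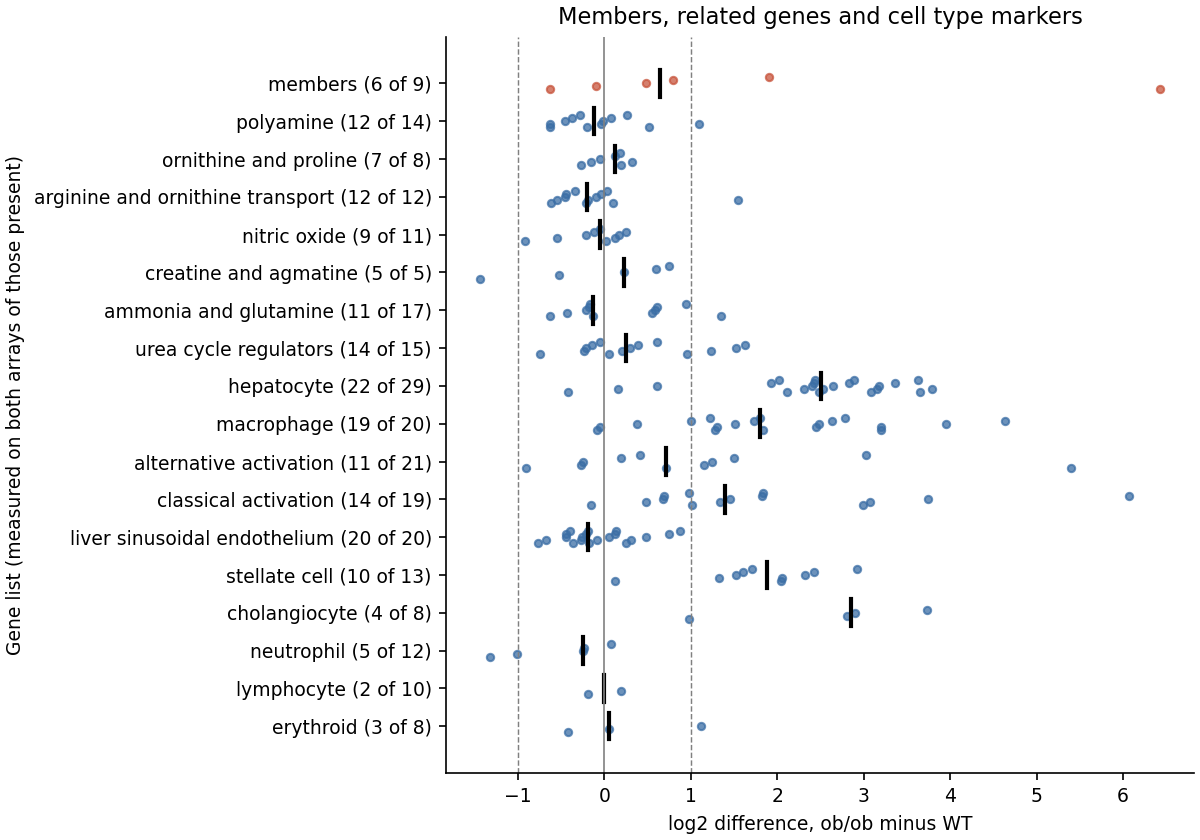
log2 difference, ob/ob minus wild-type, of each gene measured on both arrays (points) with the list median (black bar), for the 9 members (red) and 17 other lists (blue); dashed lines mark 2-fold. The lists of arginine, ornithine, polyamine and nitric oxide genes centre near 0, as do the sinusoidal endothelial markers, while hepatocyte (median 2.50) and macrophage (1.80) markers lie mostly past 2-fold.

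**Figure D5:**
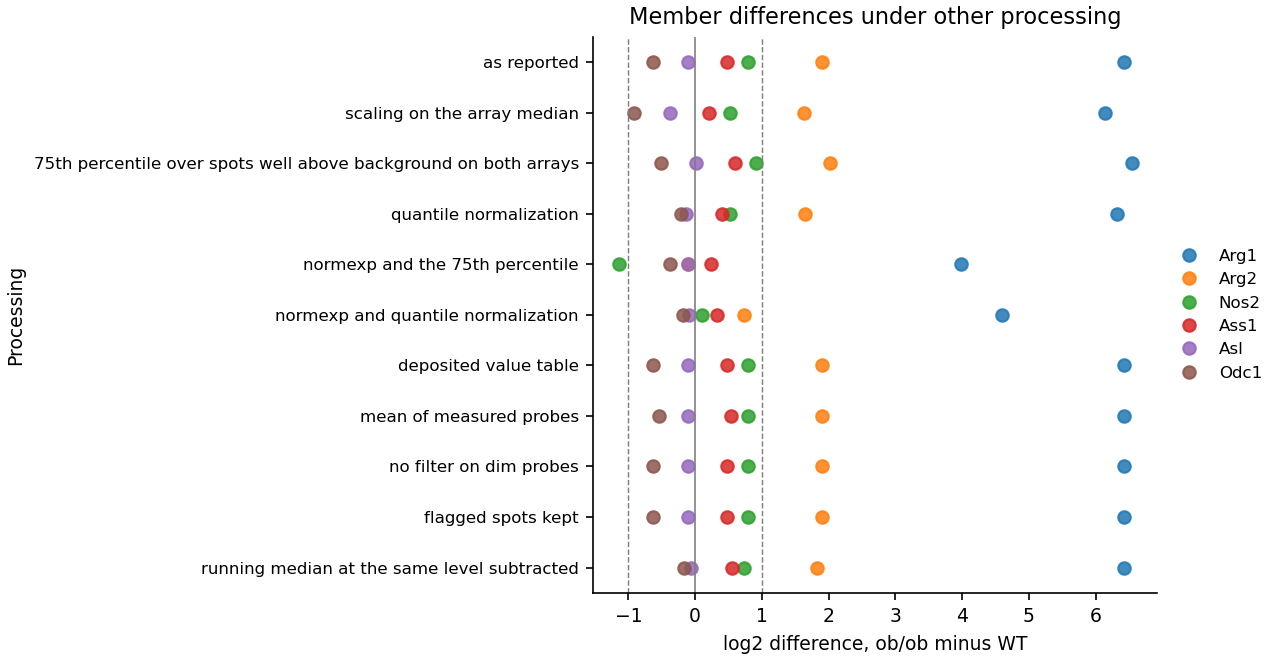
log2 difference, ob/ob minus wild-type, of the 6 measured members as reported and under 10 alternative settings; dashed lines mark 2-fold. Arg1 ranges from 3.99 to 6.54, Arg2 from -0.10 (there hidden under Asl) to 2.02 and Nos2 from -1.14 to 0.91, while Ass1, Asl and Odc1 stay between -0.91 and 0.60.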

How the data were processed

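Total RNA of 2 LSEC preparations was labelled with Cy3 and hybridised to 1-colour Agilent mouse arrays. The deposited spot intensity was made with Agilent Feature Extraction (11.0.1.1), per the file headers, subtracting background and spatial trends, without scaling between arrays. The deposited value table holds a ratio for 24868 features, which the scanner files show to be processed intensity over the array's 75th percentile (column medians 0.614 and 0.648).

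Here each intensity was divided by its array's 75th percentile over 43020 non-control spots and taken as log2. Spots flagged non-uniform (7 and 2) or outlying (143 and 119) were dropped, spots of a probe averaged, and probes called measured where over 50% of their spots were well above background. Gene names were updated through RefSeq accessions (table of assembly GRCm38.p6, names only): 26055 probes by main accession, 102 by another, 8550 kept the file's name and 4722 have none. "At least" folds compare the bright value with the dim array's lowest measured signal (12.3 and 11.7) or, if larger, the dim probe's own. Normexp (offset 50) and quantile normalization used limma 3.58.1 in R 4.3.3. The functions were tested on simulated data.

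With 1 array per group no test was possible. The precision is limited by the number of arrays. Named are all members and, per list, up to 4 genes past 2-fold on each side, up to 3 at their bound, and 3 neighbours of Arg1 and of Arg2. Other genes named within 2-fold, at background or beyond these numbers (Clec4f, Alb and the like) were chosen after their values were seen. Members and lists were chosen with earlier results of these data known. Some genes that the rule names are not reported here.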

Additional observations from a re-analysis of the deposited data

How the results depend on the processing

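No paired analysis was possible because each group holds 1 array. Of 10 alternatives, 9 were planned and the subtraction of the running median was added after seeing the data. Both normexp settings left 1 member at least 2-fold higher, with Arg1 at 3.99 (75th percentile) and 4.60 (quantile). With normexp and the 75th percentile 1 member, Nos2, was at least 2-fold lower and Arg2 changed sign to -0.10. The cause was not tested. The other alternatives moved none of these counts by over 1.5 times, and of 610 further values 544 kept within the spread between probes or 1.5 times their count, 65 did not and the Arg2 value above reversed. Over all genes, higher and lower calls were 1055 and 417 as reported, 766 and 981 with array-median scaling (a shift of -0.28 in each difference), 1196 and 294 with the 75th percentile over spots above background on both arrays, 914 and 555 with quantile normalization, 369 and 3823 under normexp with 75th-percentile scaling, 508 and 130 under normexp with quantiles, and 2151 and 670 with no filter on dim probes. The signs of the Asl difference and of the medians near 0 (polyamine, ornithine and proline, nitric oxide, creatine, ammonia, regulator, sinusoidal endothelial, lymphocyte and erythroid lists) changed among alternatives. Signals near background limit Cps1, Nags, Otc and Nos2, and low wild-type signals (34.6 and 40.7) limit Arg1 and Arg2.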
